A study of Homo sapiens with 24 samples.

Results

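The genes of DNA replication and of nucleotide synthesis were followed through RNA-seq of T-47D cells, an established luminal breast cancer line, carrying wild-type (WT) or mutant ESR1, the gene of estrogen receptor alpha. The set was chosen by symbol, with earlier results of these data known, and holds 50 of the 26364 genes in the count tables. It was divided by role into 9 groups, namely the MCM helicase (6 genes), origin licensing (5), partners of the helicase and origin firing (6), the sliding clamp and its loaders (7), polymerases and primase (7), strand maturation and RPA (5), nucleotide synthesis (5), fork protection (3), and chromatin and histone supply (6). The cells were WT clones or clones heterozygous for Y537S or D538G at the endogenous ESR1 locus, with 2 clones of each of the 3 genotypes serving as duplicates. All were kept in hormone-deprived medium, transfected at 10 nM and harvested 24 h later. WT cells received a negative control mimic or a mimic of miR-301b, miR-331 or miR-181c. D538G cells received the control mimic, miR-301b or miR-181c, and Y537S cells received the control mimic, miR-301b, miR-331, a let-7f inhibitor or the inhibitor control. These 12 conditions gave 24 libraries, 1 per clone and condition. With 2 clones, a property of a clone and an effect of its mutation cannot be told apart.

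DNA replication begins when the origin recognition complex, CDC6 and CDT1 load the MCM2 to MCM7 ring onto origins in G1, a step that geminin (GMNN) blocks later in the cycle. In S phase the ring is joined by CDC45 and the GINS proteins, primase and DNA polymerase alpha lay down primers, and polymerases delta and epsilon extend them on the PCNA clamp, which the RFC complex loads. RPA coats the single strand, FEN1 and LIG1 finish the lagging strand, and ribonucleotide reductase, thymidylate synthase and thymidine kinase supply the nucleotides. Many of these genes are known targets of the E2F transcription factors, and in breast cancer cells estrogen receptor activity is known to drive entry into S phase.

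A miRNA pairs with a message mainly through its seed, bases 2 to 8, shown in capitals in the mature sequences of the 4 miRNAs used, which are those of RefSeq (GRCh38.p14). The seeds differ from each other, so the 4 miRNAs form no shared seed group.
miR-301b-3p: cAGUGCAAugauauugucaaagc
miR-331-3p: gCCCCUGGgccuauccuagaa
miR-181c-5p: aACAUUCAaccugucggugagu
let-7f-5p: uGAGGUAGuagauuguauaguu

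Letters complementary to a seed were searched on the transcript strand of the 3' untranslated regions (3'UTRs) of 1 transcript per gene (GENCODE, hg19). All 50 members had a 3'UTR. A match to miR-301b was found in 5 members (10.0%), against 15.8% of the 14100 genes with a measured level and a 3'UTR. For miR-331 it was 3 members (6.0%) against 15.4%, for miR-181c 6 members (12.0%) against 21.0%, and for let-7f 3 members (6.0%) against 10.8%. Counting only matches of 8 bases, which add an A opposite the first base of the miRNA, left POLA1 and RFC1 for miR-181c, RRM2 for let-7f and no member for the other miRNAs. Matches in 4 members are shown because their messages were the clearest cases below of a fall, or of a rise, in the presence of a match. The other members with a match were GINS4, RFC2, POLA1 and DUT for miR-301b and MCM6, CDC6, MCM10, RFC1 and RFC3 for miR-181c. For let-7f they were RFC1, RRM2 and TK1. MCM10 was called higher, not lower, with miR-181c in WT cells. The 7 letters opposite the seed are in capitals, the coordinates are those of the capitals, and in the match of 8 bases the added A follows them in lower case.
RPA2, miR-301b match, chr1:28218211-28218217, minus strand: tactttcagaaTTGCACTttcctgcttgtc
RPA2, first miR-331 match, chr1:28218585-28218591, minus strand: catatgtctggCCAGGGGgcttctaggaag
RPA2, second miR-331 match, chr1:28218127-28218133, minus strand: cggtagtgcctCCAGGGGcagaggaaaaga
POLA1, miR-181c match of 8 bases, chrX:25014193-25014199, plus strand: tcatgtttgtgTGAATGTagaccaggaaag
RPA1, first miR-331 match, chr17:1802422-1802428, plus strand: tgattgggaacCCAGGGGcagtgccagggg
TK1, miR-331 match, chr17:76170248-76170254, minus strand: ggacttggatcCCAGGGGcttatctcttca

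A second set of letters was searched in promoters, taken as 250 bases before to 50 bases after the transcription start in RefSeq (GRCh38.p14). These were the E2F-type letters TTTCCCGC, TTTCGCGC, TTTGCCGC and TTTGGCGC on either strand, with overlapping matches in a promoter counted once. Of the 42 members in the promoter table, 23 held at least 1 match (54.8%), against 6.18% of the 11504 genes with a measured level and a promoter and 3.99% of all 27305 genes of the table. The members without a promoter entry were MCM4, MCM5, GINS4, POLD3, RPA2, RPA3, ATAD2 and DSCC1. All 50 members, with or without a match, stood higher in both mutants than in WT cells. A link of the letters with this was not tested. Windows from 4 members of different complexes are shown as examples, with the letters in capitals.
MCM2, chr3:127598402-127598431, plus strand: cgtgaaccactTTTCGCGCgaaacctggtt
CDT1, chr16:88803743-88803772, plus strand: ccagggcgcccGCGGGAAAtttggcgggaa
GINS3, chr16:58392455-58392484, plus strand: cgtccccgggcGCGGGAAAcgagtttcaat
PCNA, chr20:5126663-5126692, minus strand: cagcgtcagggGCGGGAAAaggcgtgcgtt

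Libraries held 31379962 to 50526442 counts. Levels are given as library-size scaled counts (CPM, counts per 1e6), scaled by the TMM method over all 24 libraries, and changes as log2 fold changes. A gene was called at an adjusted p below 0.05 in edgeR (quasi-likelihood F test, adjusted by Benjamini and Hochberg's method over all genes of that comparison). All 50 members passed the filter on low counts in every comparison, so no member dropped out. In every library the luminal genes were present, with KRT8 at 2219 CPM or more and GATA3 at 1365 CPM or more. Of the markers of other cell types, COL1A1 lay between 47.5 and 81.2 CPM, and each of the other fibroblast, endothelial, immune and basal markers stayed at or below 2.82 CPM except TP63. The 3 basal markers summed to between 3.70 and 8.27 CPM in WT libraries and to at most 1.28 CPM in mutant ones, and their part in the genotype results was not tested. The tables hold no allele counts, so the genotype labels were not checked by sequence.

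The replication genes were higher in both mutants than in WT cells given the same control mimic. All 50 were called higher in Y537S cells, where 16.3% of all genes tested were called higher, and 49 were called higher in D538G cells, where that share was 20.4%. Because the members were chosen with earlier results of these data known, these counts describe the set and are not a test of it. The median member was higher by 1.17 on the log2 scale in Y537S cells and by 0.99 in D538G cells, while the median of all genes was -0.0026 and -0.00078. Over all conditions, the summed level of the 50 members lay between 2511 and 3283 CPM in the 8 WT libraries, between 4488 and 5510 CPM in the 6 D538G libraries and between 5337 and 6661 CPM in the 10 Y537S libraries, so the WT range was separate from the others. In bulk RNA a larger share of cells in S phase and more message per cycling cell cannot be told apart. The counts of each genotype were deposited separately, so any difference in handling between the genotypes cannot be told apart from the mutation.

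**Figure D1:**
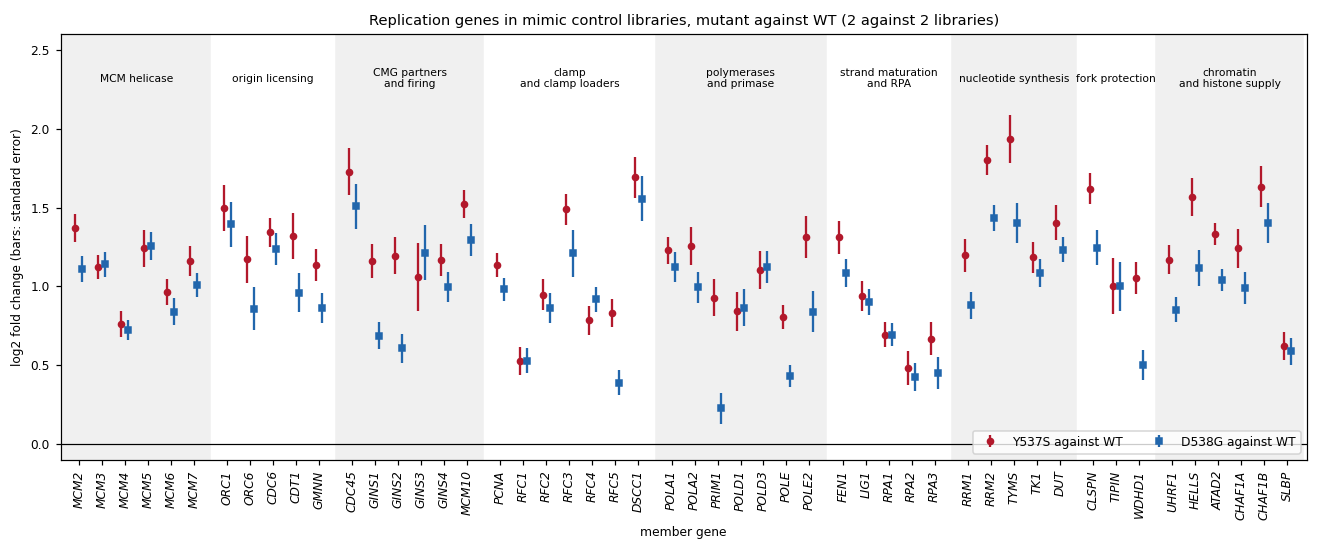
Log2 fold change of each of the 50 members (x axis, by group) in mimic control libraries of Y537S (circles) and D538G (squares) cells against WT, with the standard error as bars and 2 libraries per genotype. All values lie above 0, from 0.48 to 1.94 in Y537S and from 0.23 to 1.56 in D538G cells.

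The largest rises in Y537S cells were those of nucleotide synthesis genes. TYMS, thymidylate synthase, stood at 9.86 and 9.39 CPM in the WT clones D1 and D4, at 24.7 and 26.1 CPM in the D538G clones A5 and C2 and at 40.3 and 32.0 CPM in the Y537S clones 1 and 2. RRM2, the regulated subunit of ribonucleotide reductase, stood at 116 and 126 CPM in WT, 306 and 346 CPM in D538G and 442 and 386 CPM in Y537S clones. For both genes the 3 genotypes did not overlap, in the order WT, D538G, Y537S. TYMS was higher in Y537S than in WT by 1.94 ± 0.15 (SE, adjusted p = 0.00023 in edgeR) and RRM2 by 1.80 ± 0.09 (adjusted p = 9.3e-05). In D538G cells the corresponding log2 fold changes were 1.40 ± 0.13 and 1.44 ± 0.08.

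In D538G cells the largest rises were those of DSCC1, part of an alternative clamp loader that acts in sister chromatid cohesion, and of CDC45, which activates the MCM ring. DSCC1 rose from 9.18 and 9.03 CPM in WT to 24.0 and 29.5 CPM in D538G and 29.8 and 28.0 CPM in Y537S clones. CDC45 stood at 11.4 and 10.0 CPM in WT, 27.2 and 33.6 CPM in D538G and 38.1 and 31.5 CPM in Y537S clones. For both genes the WT libraries lay below all others while the ranges of the 2 mutants overlapped. Against WT, DSCC1 was higher in D538G cells by 1.56 ± 0.14 (adjusted p = 5.8e-05, edgeR) and CDC45 by 1.51 ± 0.14 (adjusted p = 7.2e-05).

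By group, the medians in Y537S cells ran from 0.69 for strand maturation and RPA to 1.41 for nucleotide synthesis. In D538G cells the same groups were the lowest and the highest, at 0.69 and 1.23. The 6 MCM helicase genes rose by 0.76 (MCM4) to 1.37 (MCM2) in Y537S and by 0.72 to 1.26 in D538G cells. The origin licensing genes rose by 1.13 to 1.50 and by 0.86 to 1.40. GMNN, the inhibitor of licensing, was among them and rose with the factors it restrains. The smallest rises in Y537S cells were those of RPA2, at 0.48, and RFC1, at 0.53, the large subunit of the clamp loader.

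PRIM1, the catalytic subunit of primase, was the member not called in D538G cells. It stood at 29.0 and 31.3 CPM in WT and at 34.5 and 35.8 CPM in D538G clones, a log2 fold change of 0.23 ± 0.10 (adjusted p = 0.094, edgeR; unadjusted p = 0.043). In Y537S clones it stood at 51.9 and 60.4 CPM, above all of these. A direct comparison of Y537S with D538G cells, added after the data had been seen, called 5 members higher in Y537S and none lower, where 3.93% of all genes were called higher. These were PRIM1 (0.70 ± 0.11), GINS2 (0.58 ± 0.12), WDHD1 (0.55), RFC5 (0.43) and POLE (0.37), and the adjusted p was 0.020 for PRIM1 and 0.041 for GINS2. GINS2, a subunit of the GINS complex, stood at 69.1 and 77.6 CPM in WT, 105 and 118 CPM in D538G and 148 and 181.2 CPM in Y537S clones. PRIM1 and GINS2 thus did not overlap between the mutants. After correction for GC content PRIM1 and WDHD1 were still called.

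Per kilobase of transcript, the most abundant members in WT control cells were MCM4, at 78.8 CPM per kb, PCNA (76.3), TK1 (46.9) and RFC4 (42.8), and the least abundant were GINS3 (2.11), ORC1 (2.40) and CLSPN (2.44). In Y537S cells PCNA and MCM4 were again the highest, at 164 and 131 CPM per kb, and RRM2 came next at 127.

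Other replication and cell cycle genes, listed by function, were set beside the members by counts. Of 33 further replication genes tested, 27 were called higher and 1 lower in Y537S cells (median 0.75) and 23 higher and 3 lower in D538G cells (median 0.59). Of 13 E2F and RB family genes, 7 were called higher and none lower in Y537S cells, and 6 higher and 3 lower in D538G cells. All 32 mitotic genes were called higher in both mutants, with medians of 1.86 and 1.50. These lists were drawn up with earlier results of the same data known.

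The mimics changed fewer members than the genotypes did, and in both directions. The median member lay between -0.18 and 0.15 over the 8 treatment comparisons. RPA2 fell by more with miR-331 in WT cells (-1.03) than it rose in either mutant (0.48 and 0.42). Over the 8 treatment comparisons 31 members (62.0%) were called at least once and 19 never, where 53.5% of the 14071 genes tested in all 8 were called at least once. Of the 31, 15 were called only as higher, as were 24.9% of all genes, and 13 of the 50 (26.0%) only as lower, as were 26.8% of all genes. MCM10, RRM2 and CLSPN were called in both directions in different comparisons. These were 3 of the 50 members, where 255 of the 14071 genes were called in both directions. The share of members called only as lower thus lay near that of all genes. Comparisons within a genotype that used the control mimic share the same 2 control libraries, so their values are set side by side here and not counted as separate evidence.

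**Figure D2:**
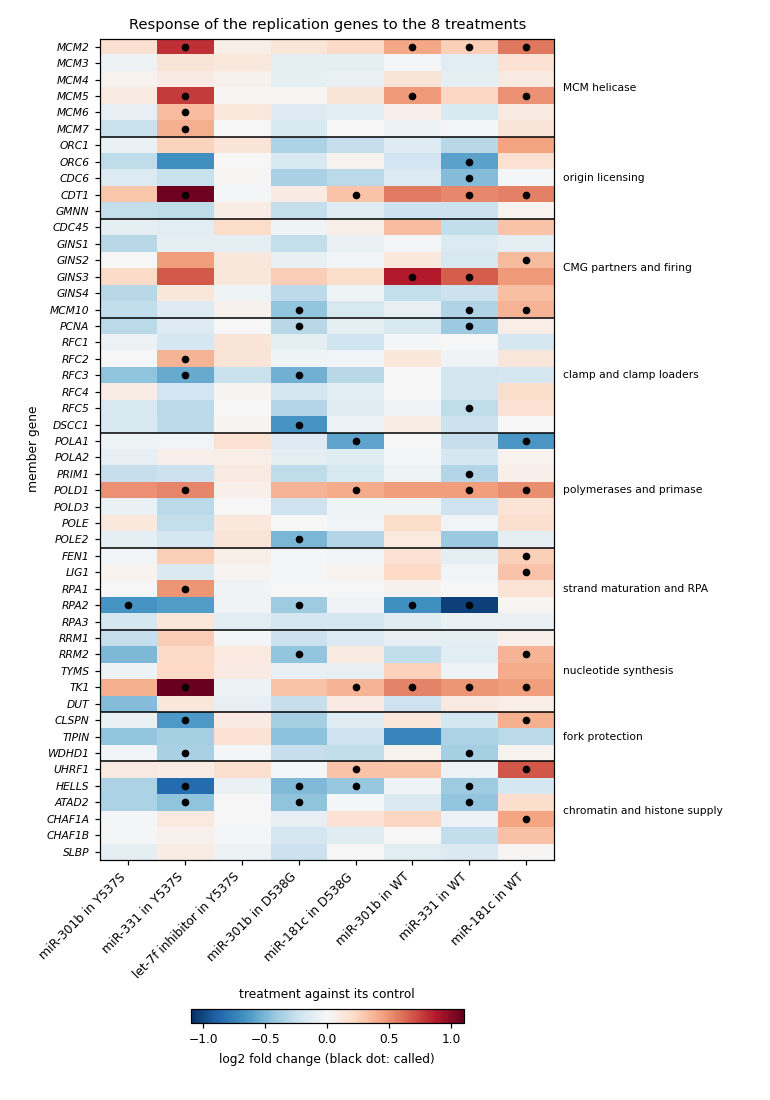
Heat map of the log2 fold change of the 50 members (rows, by group) in each of the 8 treatments against its control (columns), with a black dot where the gene was called. MCM2, CDT1, POLD1 and TK1 are above 0 in every mimic column, RPA2 is below 0 in all 3 miR-301b columns and both miR-331 columns, and the let-7f inhibitor column holds no dot.

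In Y537S cells miR-301b changed 1 member, RPA2, which was lower. No member was called higher (1.23% of all genes were) and 2.34% of all genes were called lower. The median member was at -0.08, and 13 of 50 lay above 0. The clones differed, with a median of 0.0098 and 27 members higher in clone 1, and a median of -0.14 and 36 members lower in clone 2. With the clone as a block, 22 members were called, 4 higher and 18 lower, where 38.4% of all genes were called. After GC correction 0 members were called, against 24 of 15145 genes.

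In D538G cells the miR-301b mimic lowered 9 members and raised none, where 6.49% of all genes were called lower and 5.29% higher. The 9 were MCM10, PCNA, RFC3, DSCC1, POLE2, RPA2, RRM2, HELLS and ATAD2. The median member was at -0.18 (all genes 0.0055) and 6 of 50 lay above 0. The medians within the clones A5 and C2 were -0.19 and -0.19. With the clone as a block 27 members were called, 25 lower and 2 higher, against 33.3% of all genes. After GC correction 0 members were called, against 219 of 14845 genes, and the median member was at -0.16.

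In WT cells the miR-301b mimic raised 4 members, MCM2, MCM5, GINS3 and TK1, where 4.63% of all genes were called higher, and lowered RPA2, where 3.87% were called lower. The median member was at 0.002, with 0.09 within clone D1 and -0.04 within clone D4. The blocked fit called 14 members, 9 higher and 5 lower, against 28.2% of all genes. After GC correction 4 members were called, 3 higher and 1 lower, against 738 of 15113 genes.

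With the miR-331 mimic 14 members were called in Y537S and 15 in WT cells. In Y537S cells 9 members rose (18.0%), namely MCM2, MCM5, MCM6, MCM7, CDT1, RFC2, POLD1, RPA1 and TK1, where 17.2% of all genes were called higher. RFC3, CLSPN, WDHD1, HELLS and ATAD2 fell (10.0%), where 15.8% of all genes were called lower. The share of members that rose was thus near that of all genes, and the share that fell was below it. The blocked fit called 35 members, 17 higher and 18 lower, against 60.7% of all genes. In WT cells 5 members rose (MCM2, CDT1, GINS3, POLD1 and TK1, background 14.2%) and 10 fell (ORC6, CDC6, MCM10, PCNA, RFC5, PRIM1, RPA2, WDHD1, HELLS and ATAD2, background 10.6%). The 10 that fell were 20.0% of the members. The median member in WT cells was at -0.17, with -0.14 within clone D1 and -0.21 within clone D4, and 7 of 50 lay above 0. With the clone as a block 24 were called, 6 higher and 18 lower, against 37% of all genes.

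The miR-181c mimic raised 13 members in WT cells, where 8.1% of all genes were called higher, and lowered POLA1, where 8.28% were called lower. The 13 were MCM2, MCM5, CDT1, GINS2, MCM10, POLD1, FEN1, LIG1, RRM2, TK1, CLSPN, UHRF1 and CHAF1A, and the median of all 50 members was 0.15, with 0.23 within clone D1 and 0.10 within clone D4. After GC correction 11 members were called with miR-181c in WT cells, where 1114 of 14968 genes were called. With miR-331 it was 9 members in Y537S cells, against 3341 of 14877 genes, and 6 in WT cells, against 976 of 15140. In D538G cells the miR-181c mimic raised CDT1, POLD1, TK1 and UHRF1 (background 5.58%) and lowered POLA1 and HELLS (background 3.95%), with a median of -0.07. After GC correction 0 members were called in D538G cells, against 225 of 14826 genes. The blocked fit called 20 members in WT cells, 19 of them higher, against 27.9% of all genes, and 14 in D538G cells, 5 higher and 9 lower, against 29.3%.

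The let-7f inhibitor gave no call of a member or of any gene (0%) in edgeR. An unadjusted p below 0.05 was found for 1 member and 786 genes, and DESeq2 called no member and 78 genes. The largest difference among members was that of RFC3, at -0.25 (adjusted p = 0.95). With the clone as a block 7 members were called, against 11.2% of all genes. MCM3, RFC2, POLA1, POLE, RRM2 and UHRF1 were higher by 0.10 to 0.18 and RFC3 lower. RRM2, which holds the 8-base let-7f match, stood at 379 and 346 CPM with the inhibitor control and at 411 and 369.5 CPM with the inhibitor, a log2 fold change of 0.10 (adjusted p = 1.0, or 0.035 in the blocked fit, edgeR).

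RPA2, the middle subunit of the single-strand binding protein RPA, was lower with miR-301b in all 3 genotypes. In WT clones D1 and D4 it stood at 34.4 and 36.98 CPM with the control mimic, 22.4 and 22.6 CPM with miR-301b, 16.9 and 17.4 CPM with miR-331 and 41.0 and 32.0 CPM with miR-181c. The D538G clones had 48.2 and 47.3 CPM with the control, 35.4 and 37.1 CPM with miR-301b and 41.9 and 50.4 CPM with miR-181c. In Y537S clones 1 and 2 it stood at 51.6 and 46.1 CPM with the control, 32.5 and 30.8 CPM with miR-301b and 25.3 and 37.01 CPM with miR-331. Every miR-301b and miR-331 library lay below both control libraries of its genotype, while the miR-181c libraries overlapped them. The fall with miR-301b was -0.67 ± 0.10 in WT (adjusted p = 0.0083, edgeR), -0.39 ± 0.09 in D538G (adjusted p = 0.028) and -0.65 ± 0.11 in Y537S cells (adjusted p = 0.039). With miR-331 it was -1.03 ± 0.09 in WT cells (adjusted p = 0.00011), the lowest fold change of any member in any treatment. In Y537S cells the value with miR-331 was -0.62 ± 0.20 (adjusted p = 0.063, or 3.3e-05 in the blocked fit). RPA2 holds 1 match to miR-301b, 2 to miR-331 and none to miR-181c. With a correction for GC content the calls in WT cells remained, at -0.62 and -0.95, and those in D538G and Y537S cells did not, at -0.36 and -0.60 (adjusted p = 0.10 and 0.098). With any 1 of the 4 libraries left out, the calls in D538G and Y537S cells were lost.

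The other subunits of RPA were not called lower in any treatment. RPA1, the large subunit, holds 2 matches to miR-331, and in Y537S cells it rose from 189 and 202 CPM with the control to 279 and 257 CPM with miR-331, a log2 fold change of 0.48 ± 0.09 (adjusted p = 0.016, edgeR). In WT cells it stood at 119.8 and 127 CPM with the control and at 118 and 124 CPM with miR-331, overlapping. RPA3 was called in no treatment, with log2 fold changes between -0.20 and 0.14. Of the enzymes that finish the lagging strand, FEN1, the flap endonuclease, and LIG1, the ligase, were called higher with miR-181c in WT cells, by 0.26 and 0.31, and in no other treatment. After correction for GC content neither was called (0.21 and 0.09).

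**Figure D3:**
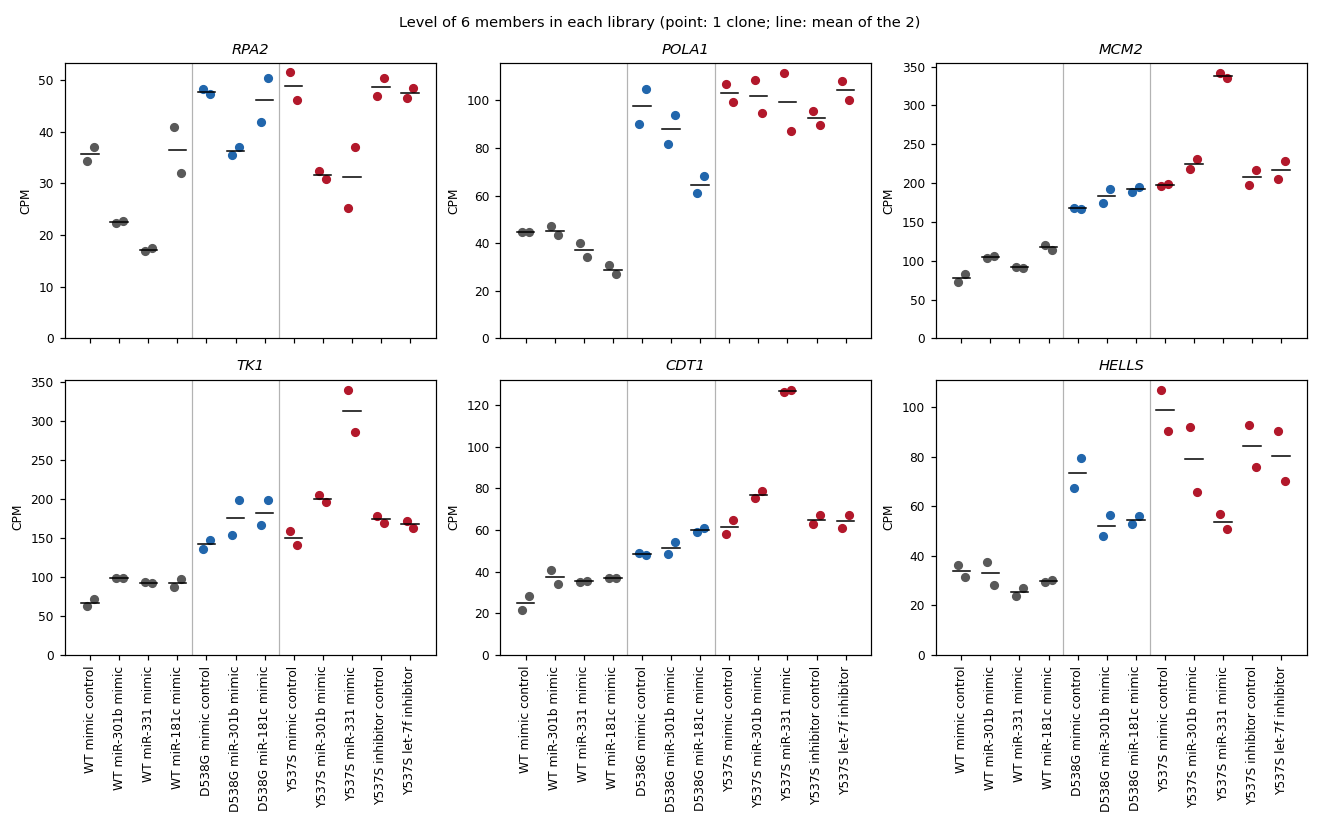
Level in CPM (y axes, from 0) of 6 members in each of the 24 libraries (points, 1 per clone) with the mean of the 2 clones (lines), by condition (x axis) and coloured by genotype. RPA2 is lowest with miR-331 in WT cells, at 16.9 and 17.4 CPM, POLA1 is lowest in its genotype with miR-181c, and MCM2, TK1 and CDT1 are highest with miR-331 in Y537S cells.

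Among the polymerase genes, POLA1 and POLD1 responded in opposite directions. POLA1 encodes the catalytic subunit of the polymerase that starts each new strand with primase. In WT clones it stood at 44.8 and 44.9 CPM with the control, 47.1 and 43.6 CPM with miR-301b, 39.9 and 34.2 CPM with miR-331 and 30.7 and 27.2 CPM with miR-181c. In D538G clones it stood at 90.3 and 105 CPM with the control, 81.8 and 93.9 CPM with miR-301b and 61.0 and 68.2 CPM with miR-181c. In both genotypes the miR-181c libraries lay below every other library of that genotype. The fall with miR-181c was -0.64 ± 0.10 in WT (adjusted p = 0.0021, edgeR) and -0.58 ± 0.10 in D538G cells (adjusted p = 0.0084). Both calls held with each library left out in turn, while after GC correction the value in WT cells was -0.49 (adjusted p = 0.0064) and that in D538G cells -0.45 (adjusted p = 0.069). POLA1 holds an 8-base match to miR-181c, and RFC1, the other member with such a match, was at -0.22 in D538G and -0.19 in WT cells and was called in neither.

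POLD1, the catalytic subunit of polymerase delta, was above its control with every mimic, in a range of 0.37 to 0.54, and was called in 4 of the 7 mimic comparisons. POLD1 was compared in WT cells with the same 2 control libraries each time, so its calls there are not separate evidence. In Y537S clones it stood at 30.9 and 31.5 CPM with the control, 49.7 and 40.0 CPM with miR-301b and 49.9 and 39.0 CPM with miR-331. The WT clones had 16.6 and 18.9 CPM with the control, 22.7 and 26.5 CPM with miR-301b, 25.01 and 23.1 CPM with miR-331 and 24.4 and 26.5 CPM with miR-181c. POLD1 in D538G clones stood at 30.5 and 34.0 CPM with the control, 36.7 and 46.5 CPM with miR-301b and 40.7 and 44.4 CPM with miR-181c. No library of a miRNA mimic overlapped the control mimic libraries of its genotype. The Y537S inhibitor control, at 40.4 and 34.6 CPM in clones 1 and 2, did overlap the Y537S libraries with miR-301b and miR-331. The calls were for miR-331 in Y537S (0.54 ± 0.14) and for miR-181c in D538G (0.41 ± 0.10), miR-331 in WT (0.46 ± 0.11) and miR-181c in WT cells (0.51 ± 0.12), with adjusted p values of 0.036, 0.032, 0.011 and 0.015 in edgeR. None of the 4 was called after correction for GC content, where the values were 0.18, 0.04, -0.03 and 0.18. POLE2, a small subunit of polymerase epsilon, fell with miR-301b in D538G cells (-0.50) and PRIM1 with miR-331 in WT cells (-0.32), while POLA2, POLD3 and POLE were called in no treatment.

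Of the helicase genes MCM2 and MCM5 responded most. MCM2 stood at 73.0 and 82.5 CPM in WT control libraries, at 104 and 106 CPM with miR-301b, 91.8 and 91.0 CPM with miR-331 and 120.4 and 114 CPM with miR-181c. The Y537S clones had 196 and 198 CPM with the control, 218 and 231 CPM with miR-301b and 341 and 336 CPM with miR-331. The D538G clones had 168 and 167 CPM with the control, 174 and 192 CPM with miR-301b and 189 and 195 CPM with miR-181c. All mimic libraries lay above the controls of their genotype. The rise was called with miR-331 in Y537S (0.81 ± 0.08, adjusted p = 0.0062, edgeR) and with all 3 mimics in WT cells, at 0.42 ± 0.09 for miR-301b, 0.26 ± 0.07 for miR-331 and 0.58 ± 0.08 for miR-181c. After GC correction it was still called with miR-331 in Y537S (0.58) and miR-181c in WT cells (0.43), but not with miR-301b or miR-331 in WT cells (0.26 and 0.07). MCM5 was called in 3 comparisons, at 0.77 with miR-331 in Y537S, 0.47 with miR-301b in WT and 0.51 with miR-181c in WT cells, and all 3 held after GC correction. MCM6 and MCM7 were called only with miR-331 in Y537S cells, at 0.34 and 0.40, MCM7 not after GC correction (0.22), and MCM3 and MCM4 in no treatment.

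Licensing factors diverged in the same way. CDT1, which delivers the MCM ring to origins, stood at 21.8 and 28.3 CPM in WT control libraries, at 40.6 and 34.1 CPM with miR-301b, 35.2 and 35.7 CPM with miR-331 and 37.1 and 36.8 CPM with miR-181c. In Y537S clones it rose from 58.1 and 64.6 CPM with the control to 126 and 127 CPM with miR-331, and stood at 75.2 and 78.7 CPM with miR-301b. In D538G clones it stood at 49.1 and 48.0 CPM with the control, 48.5 and 54.4 CPM with miR-301b and 58.9 and 60.7 CPM with miR-181c. Apart from miR-301b in D538G cells, the mimic libraries lay above the controls. The log2 fold change was 1.07 ± 0.10 with miR-331 in Y537S cells (adjusted p = 0.0062, edgeR) and remained called after GC correction, at 0.73. It was 0.53 ± 0.12 with miR-331 and 0.55 ± 0.13 with miR-181c in WT and 0.31 ± 0.08 with miR-181c in D538G cells, and after GC correction these were 0.05, 0.23 and -0.05 and none was called. ORC6, a subunit of the origin recognition complex, moved the other way. In WT clones it stood at 11.3 and 10.4 CPM with the control and at 7.31 and 6.92 CPM with miR-331 (-0.59 ± 0.15, adjusted p = 0.015, edgeR), with no overlap. In Y537S clones it stood at 21.9 and 26.1 CPM with the control and at 12.0 and 17.5 CPM with miR-331 (-0.68 ± 0.22, adjusted p = 0.067, and 8.7e-06 with the block). CDC6 fell with miR-331 in WT cells (-0.48), and ORC1 and GMNN were called in no treatment.

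Among the partners of the helicase, GINS3 and MCM10 were called most often. GINS3, a subunit of GINS, stood at 4.79 and 4.48 CPM in WT control libraries, 8.47 and 8.61 CPM with miR-301b, 8.03 and 6.48 CPM with miR-331 and 6.72 and 6.21 CPM with miR-181c. Each mimic library was above both controls. The rise was 0.87 ± 0.17 with miR-301b (adjusted p = 0.022, edgeR) and 0.67 ± 0.19 with miR-331 (adjusted p = 0.024), and after GC correction it was 0.91 and 0.73 and still called. MCM10, which acts as the helicase starts to unwind, fell with miR-301b in D538G cells, from 79.5 and 95.9 to 65.3 and 64.2 CPM (-0.43 ± 0.10, adjusted p = 0.029, edgeR). In WT cells it stood at 35.6 and 36.1 CPM with the control, 28.3 and 27.7 CPM with miR-331 (-0.33 ± 0.08) and 49.9 and 43.5 CPM with miR-181c (0.38 ± 0.10), on either side of the control. After GC correction the 2 falls were not called, at -0.32 and -0.20, while the rise was called at 0.51. GINS2 rose with miR-181c in WT cells (0.34), and CDC45, GINS1 and GINS4 were called in no treatment.

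The clamp genes were called mainly as lower. RFC3, a small subunit of the clamp loader, stood in Y537S clones at 65.8 and 61.1 CPM with the control, 54.5 and 40.7 CPM with miR-301b and 43.2 and 41.3 CPM with miR-331. In D538G clones it stood at 44.2 and 62.3 CPM with the control, 35.5 and 38.2 CPM with miR-301b and 41.1 and 44.2 CPM with miR-181c. The clone C2 control was higher than the clone A5 control. With 1 library left out in turn, the log2 fold change of RFC3 with miR-301b in D538G cells ranged from -0.75 to -0.26. RFC3 fell by 0.56 ± 0.09 with miR-331 in Y537S (adjusted p = 0.011, edgeR) and fell by 0.53 ± 0.15 with miR-301b in D538G cells (adjusted p = 0.046), and after GC correction the values were -0.06 and -0.24, neither called. DSCC1 fell from 24.0 and 29.5 to 15.4 and 18.6 CPM with miR-301b in D538G cells (-0.65 ± 0.15, adjusted p = 0.024, edgeR), without overlap, and was not called after GC correction (-0.41). PCNA fell with miR-301b in D538G (-0.30) and with miR-331 in WT cells (-0.40, still called after GC correction at -0.27). RFC2 rose with miR-331 in Y537S cells (0.37), RFC5 fell with miR-331 in WT cells (-0.28), and neither was called after GC correction. RFC1 and RFC4 were called in no treatment.

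In nucleotide synthesis the gene called most often was TK1, thymidine kinase of the salvage pathway, which was called higher in 5 of the 7 mimic comparisons. In WT clones it stood at 63.0 and 71.3 CPM with the control, 98.0 and 98.9 CPM with miR-301b, 93.2 and 91.6 CPM with miR-331 and 87.5 and 97.9 CPM with miR-181c. In Y537S clones it stood at 158 and 141 CPM with the control, 204 and 196 CPM with miR-301b and 339 and 286 CPM with miR-331, and in D538G clones at 136 and 148, 153 and 198, and 166 and 198 CPM with the control, miR-301b and miR-181c. Every mimic library was above the controls of its genotype. The log2 fold change was 1.09 ± 0.12 with miR-331 in Y537S cells (adjusted p = 0.0062, edgeR), the highest of any member in any treatment, and TK1 holds a match to miR-331. It was 0.54 ± 0.09, 0.49 ± 0.07 and 0.46 ± 0.09 with miR-301b, miR-331 and miR-181c in WT cells and 0.37 ± 0.09 with miR-181c in D538G cells. After GC correction the calls with miR-331 in Y537S (0.79) and miR-301b in WT cells (0.30) remained and the other 3 did not (0.18, 0.23 and 0.13). RRM2 fell with miR-301b in D538G cells (-0.44) and rose with miR-181c in WT cells (0.38), where it was still called after GC correction (0.54). RRM1 and TYMS were called in no treatment, nor was DUT, which clears dUTP. DUT holds a miR-301b match and was at -0.48 with miR-301b in Y537S (adjusted p = 0.088, and 1.2e-10 with the block), -0.25 in D538G and -0.23 in WT cells.

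The fork protection genes fell or rose with the treatment. CLSPN, claspin, which relays checkpoint signals at the fork, stood in Y537S clones at 64.7 and 60.7 CPM with the control, 65.9 and 55.5 CPM with miR-301b and 39.0 and 40.6 CPM with miR-331 (-0.63 ± 0.10, adjusted p = 0.0090, edgeR). In WT clones it stood at 20.8 and 20.8 CPM with the control, 17.0 and 18.7 CPM with miR-331 and 29.1 and 25.6 CPM with miR-181c (0.39 ± 0.11, adjusted p = 0.036). In both called comparisons the libraries did not overlap, and both calls held after GC correction. WDHD1 fell with miR-331 in Y537S (-0.35) and in WT cells (-0.37). After GC correction the first of these values changed sign, to 0.13, and neither was called. The correction moved the median of all genes in that comparison from -0.01 to 0.09, so 0.13 lay near that median. TIPIN was called in no treatment and was at -0.73 with miR-301b in WT cells (adjusted p = 0.052).

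Among the chromatin factors HELLS, a remodelling ATPase needed for DNA methylation, was called lower in 4 comparisons. HELLS was compared in D538G cells with the same control libraries each time, so its calls there are not separate evidence. It stood in Y537S clones at 107 and 90.4 CPM with the control and at 56.8 and 50.9 CPM with miR-331 (-0.85 ± 0.12, adjusted p = 0.0081, edgeR). In D538G clones it stood at 67.2 and 79.7 CPM with the control, 47.9 and 56.5 CPM with miR-301b (-0.49 ± 0.12) and 52.8 and 56.3 CPM with miR-181c (-0.42 ± 0.10). In WT clones it stood at 36.5 and 31.4 CPM with the control and 23.8 and 27.2 CPM with miR-331 (-0.39 ± 0.10). All of these mimic libraries lay below the controls, and after GC correction none of the 4 was called, at -0.40, -0.23, -0.25 and -0.21. UHRF1, which recruits the maintenance methyltransferase to newly made DNA, rose with miR-181c from 44.2 and 42.3 to 70.3 and 69.4 CPM in WT (0.68 ± 0.08, adjusted p = 0.00055, edgeR) and from 78.2 and 77.5 to 98.2 and 93.7 CPM in D538G cells (0.31 ± 0.08, adjusted p = 0.033). After GC correction the first was called (0.56) and the second was not (0.20). ATAD2 fell with miR-331 in Y537S (-0.44) and WT (-0.43) and with miR-301b in D538G cells (-0.44), and after GC correction only the fall in WT cells was called (-0.25). CHAF1A, of the histone chaperone CAF-1, rose with miR-181c in WT cells (0.44), and CHAF1B and SLBP were called in no treatment.

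The direction in which a member was called followed the GC content of its transcript. Over the 50 members, Pearson's r between GC content and log2 fold change was between 0.58 and 0.78 in the 7 mimic comparisons and 0.14 with the let-7f inhibitor. These are correlations across genes of the same libraries, which are not independent, and are given as a description. With miR-331 in Y537S cells, for example, the median GC content was 56.3% for the members that rose and 38.8% for those that fell, and the median over all 50 members was 46.3%. The relation was not particular to the members, since over the 12602 to 12815 genes with a mean of at least 1 CPM r was between 0.48 and 0.66 in the mimic comparisons and 0.21 with the let-7f inhibitor. After the trend on GC content had been removed from each library, r over the members was between 0.005 and 0.16 in the mimic comparisons. With miR-331 in Y537S cells this removal also moved the median of all genes, from -0.01 to 0.09. Corrected values of members in that comparison thus stand against a median of 0.09. Of the 68 calls of members in treatment comparisons and in differences between genotypes, 28 were then still called, 37 kept their direction without being called and 3 changed sign. RPA2 (46.7% GC), POLA1 (42.9%) and GINS3 (47.5%) lay away from the trend. Whether the relation with GC content arose in the cells or in the libraries was not tested.

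With 1 library left out in turn, 17 of the 68 calls held in every fit. These were CDT1, CLSPN, HELLS, MCM2, MCM5 and TK1 with miR-331 in Y537S, ATAD2, CDC6, PCNA, RPA2 and TK1 with miR-331 in WT, MCM2, POLA1 and UHRF1 with miR-181c in WT, RPA2 with miR-301b in WT, and POLA1 with miR-181c and ATAD2 with miR-301b in D538G cells. The 9 calls that held in none were RPA2 with miR-301b in Y537S and in D538G, MCM6 and WDHD1 with miR-331 in Y537S, RFC5 with miR-331 in WT, FEN1 and LIG1 with miR-181c in WT, and CDT1 and UHRF1 with miR-181c in D538G cells.

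**Figure D4:**
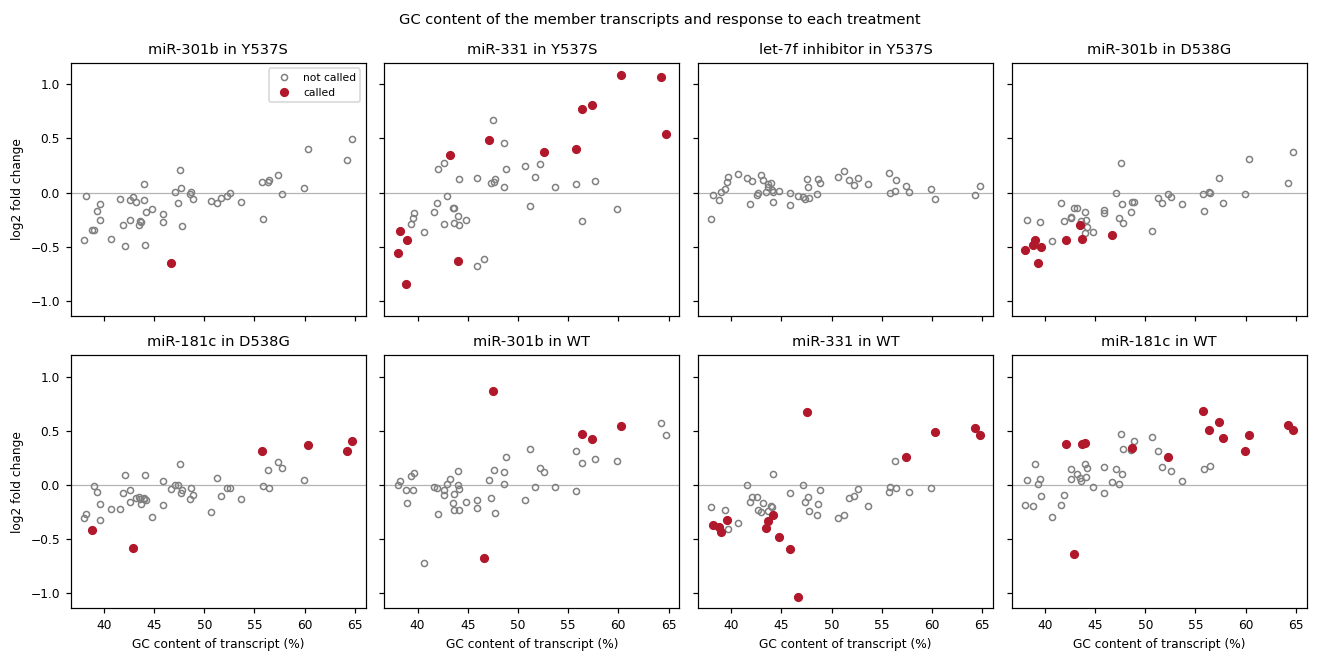
GC content of the transcript in percent (x axis) and log2 fold change (y axis) of the 50 members in each of the 8 treatment comparisons, with filled points where the gene was called. The points slope upwards in the 7 mimic panels (r between 0.58 and 0.78) and are flat with the let-7f inhibitor (r = 0.14).

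Whether a mimic acted differently on the members in mutant and in WT cells was tested as the difference between the 2 log2 fold changes. For miR-331 the difference between Y537S and WT cells was called for 4 members, all with a higher value in Y537S cells, where 3.47% of all genes were called higher. MCM2 differed by 0.53 ± 0.11 (0.81 in Y537S and 0.26 in WT cells, adjusted p = 0.021, edgeR), TK1 by 0.59 ± 0.15 (1.09 and 0.49, adjusted p = 0.042), MCM6 by 0.49 ± 0.11 (0.34 and -0.16, adjusted p = 0.028) and RPA1 by 0.47 ± 0.11 (0.48 and -0.00038, adjusted p = 0.032). All 4 held after GC correction, where the median difference of all genes was 0.11. With each of the 8 libraries left out in turn, the call for MCM2 held in 3 of the 8 fits, that for MCM6 in 2 and those for RPA1 and TK1 in 1 each, with adjusted p values of up to 0.12, 0.15, 0.17 and 0.20. None of the 4 reversed. In MCM6 the Y537S libraries rose from 136 and 146 to 181.05 and 169.7 CPM, whereas the WT libraries stood at 71.6 and 75.8 CPM with the control and at 65.4 and 63.7 CPM with miR-331. All 6 MCM genes had a higher value in Y537S cells, by 0.19 to 0.53. The blocked fit called 22 members, 18 with a higher and 4 with a lower value in Y537S cells, against 34.1% of all genes, and all 6 MCM genes were among the 18.

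**Figure D5:**
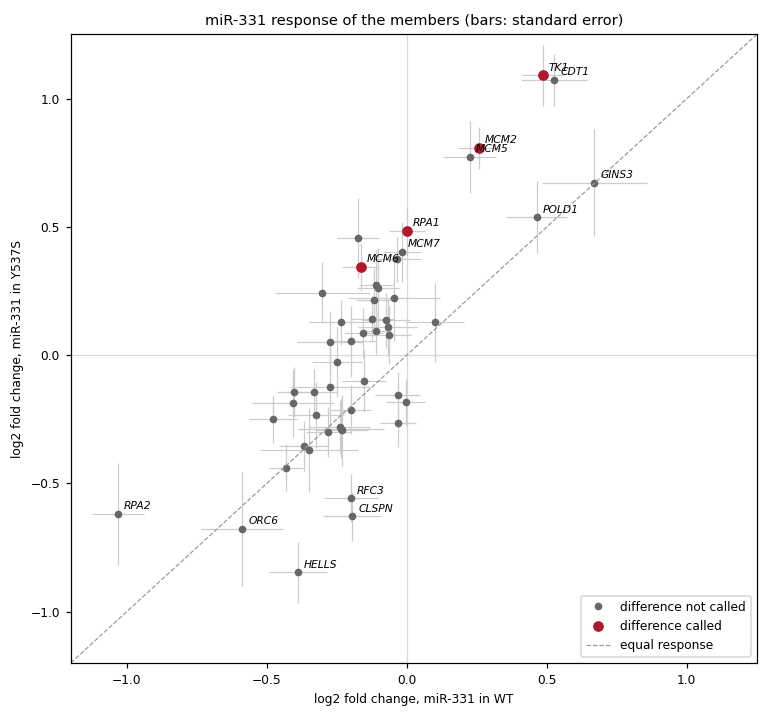
Log2 fold change of the 50 members with miR-331 in WT (x axis) and in Y537S cells (y axis), with standard errors as bars and a dashed line of equal response. MCM2, MCM6, RPA1 and TK1, whose difference was called, lie above the line by 0.47 to 0.59, and RPA2 is at -1.03 in WT and -0.62 in Y537S cells.

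For the other mimics no member was called in the difference. With miR-301b, 0.00632% of all genes were called in the difference between Y537S and WT cells and 0.0064% in that between D538G and WT cells, and 1 and 11 members had an unadjusted p below 0.05, against 343 (2.17%) and 478 (3.06%) of all genes. With miR-181c in D538G and WT cells 0.00646% of all genes were called and 14 members had an unadjusted p below 0.05, against 453 of all genes (2.93%). DESeq2 called no member in these 3 tests. The median difference was -0.13, -0.20 and -0.22, and 7, 3 and 4 of the 50 members had a higher value in the mutant. For RPA2 the miR-301b response differed from WT by 0.04 ± 0.15 in Y537S and by 0.28 ± 0.13 in D538G cells, and for POLA1 the miR-181c response differed by 0.06 ± 0.14.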

How the data were processed

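Libraries were poly-A selected and stranded. The authors deposited raw counts, whole numbers per gene without normalization. Per the labels and the study's methods the reads were aligned to hg19 with HISAT2, handled with SAMtools and counted on UCSC Known Genes with featureCounts of Subread, and tested with DESeq2. Versions, the strand setting and the treatment of multi-mapping reads are not given in the sources used here, so overlapping genes may share counts.

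The 3 count tables were joined by gene symbol. Columns of the WT and D538G tables name clones that the sample labels do not, so each was assigned to its group. Members and lists were chosen with earlier results of these data known. The named genes, whose values are given per library, were the member of each group called in most treatments and up to 2 called members with the largest rise and fall in each comparison, the rest being named with their change. A few others were added after their values were seen.

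Each comparison was fitted in edgeR 4.0.16 (R 4.3.3) on all genes, with TMM factors and filterByExpr, without a clone term as in the study's methods. Adjusted p values are Benjamini-Hochberg values over all genes tested, with calls at 0.05, and the standard errors were taken from the F statistics. Alternatives were DESeq2 1.42.0, its size factors in edgeR, no filter, each library left out, removal of a lowess trend (span 0.3) on GC content, the clone as a block, and the block with the GC correction. GC content came from GENCODE transcripts for 23857 of 26364 genes (90.5%) and for all members. The code was tested on simulated counts.

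Libraries of the same clone come from the same cell line. The log2 difference between clones in treated libraries was correlated with that in control libraries over all genes tested, with r of 0.56, 0.54 and 0.59 in Y537S, 0.24 and 0.25 in D538G and 0.25, 0.17 and 0.20 in WT cells, so the clone was taken to pair the libraries. Calls were nevertheless taken from the fit without a clone term. Each group has 2 libraries, so p values of that fit rest on the spread between 2 clones, with variance estimates that draw on all genes. Those of the blocked fit rest on how alike the response was in the 2 clones. The blocked fit leaves fewer residual degrees of freedom, so its p values draw still more on variance estimates shared over all genes. With miR-301b in Y537S cells it called 5819 of 15145 genes, against 541 without the block.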

Additional observations from a re-analysis of the deposited data

Results flagged for a closer look

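The response to miR-331 differed between Y537S and WT cells, by the test of the difference itself, for 4 members. The differences in log2 fold change, Y537S minus WT, were 0.53 for MCM2, 0.49 for MCM6, 0.47 for RPA1 and 0.59 for TK1. MCM2 and TK1 were called higher in both genotypes, and MCM6 and RPA1 in Y537S cells alone. All 4 were also called with the clone as a block. With 1 of the 8 libraries left out in turn, MCM2 was called in 3 of the 8 fits, MCM6 in 2, RPA1 in 1 and TK1 in 1, so most of these fits lost the call. Groups of 2 libraries are too small for a check of single libraries that stand apart.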

How the results depend on the processing

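In the 8 treatment comparisons, 68 calls of members (with the 4 differences between genotypes) all kept their direction and their call in DESeq2 and in the blocked fit, and 67 did with DESeq2's size factors and without the filter. Every member passed the filter on low counts in every comparison.

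With the clone as a replicate block the members called numbered 22, 35, 7, 27, 14, 14, 24 and 20 for miR-301b, miR-331 and the let-7f inhibitor in Y537S, miR-301b and miR-181c in D538G, and miR-301b, miR-331 and also miR-181c in WT cells, and 22 for the miR-331 difference, against 1, 14, 0, 9, 6, 5, 15, 14 and 4. The block changed no other count by more than 1.5 times. Shares of all genes called with the block are given above for each of these comparisons. With the replicate block and GC correction they numbered 18, 29, 7, 21, 13, 11, 15 and 23, and 29 for the miR-331 difference (27 higher), with 1, 4 and 1 for the differences of miR-301b in Y537S, miR-301b in D538G and miR-181c. All genes called in these fits numbered 4254, 8289, 1691, 2651, 2620, 3020, 3061 and 2309, and 5696 for the miR-331 difference. In the differences of miR-301b in Y537S, miR-301b in D538G and miR-181c they numbered 199, 128 and 14. For miR-331 in Y537S cells the members called were 22 higher and 7 lower, against 9 and 5. All genes called there were 5119 higher and 3170 lower, against 2563 and 2350. In the miR-331 difference all genes called with the block and GC correction were 3970 higher and 1726 lower. The medians of all genes in these 2 fits were 0.09 and 0.11. With GC correction alone the members called numbered 0, 9, 0, 0, 0, 4, 6 and 11, 6 for the miR-331 difference and 2 for Y537S against D538G. All genes called then numbered 24, 3341, 0, 219, 225, 738, 976 and 1114, and 2000 and 737. Without GC correction they numbered 541, 4913, 0, 1750, 1412, 1284, 3755 and 2452, and 1557 and 925. GC correction alone moved the median of all genes from -0.03 to 0.11 in the miR-331 difference. With miR-331 in Y537S cells it moved that median from -0.01 to 0.09. The 3 values that changed sign with GC correction were WDHD1 with miR-331 in Y537S (0.13, also 0.13 with the block), CDT1 with miR-181c in D538G (-0.046 in both) and POLD1 with miR-331 in WT cells (-0.031 in both). DESeq2 called 6 members with miR-301b in Y537S, 9 with miR-301b in WT, 9 in the miR-331 difference and 10 in Y537S against D538G. Of all genes it called 1732, 1769, 2296 and 1588 there. Without the filter on low counts the members called were 2, 10, 6 and 13, and 15 with miR-301b in D538G cells. The cause was not tested. Shares of all genes called were not set beside the counts without the filter, nor beside those below with 1 library left out. In these fits a change in the members cannot be told apart from a change in all genes.

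With 1 library left out in turn the counts ranged from 0 to 0 for miR-301b and 8 to 14 for miR-331 in Y537S, 2 to 11 for miR-301b and 1 to 4 for miR-181c in D538G, 3 to 9 (miR-301b), 6 to 13 (miR-331) and 3 to 10 (miR-181c) in WT, 0 to 5 for the miR-331 difference, 0 to 10 for Y537S against D538G, and 47 to 50 and 49 to 49 for Y537S and D538G against WT. Of the 68 calls, 17 held with each library left out and 9 with none, and no direction changed. The miR-331 difference had no member called without either WT mimic clone, WT control clone D4 or Y537S control clone 1. The lowest counts came without control clone 1 for miR-331 in Y537S, control clone C2 for miR-301b and mimic clone C2 for miR-181c in D538G, and mimic clone D1 for miR-331 and control clone D1 for miR-301b and miR-181c in WT cells.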
